A study of Homo sapiens with 9 samples.

Results

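RNA-seq counts were compared directly between VCaP cells transfected with the siRNA si025 and VCaP cells transfected with si033, to describe the programs that separate 2 siRNAs designed against the same antisense long non-coding RNA, *IGF1R-AS1*. The libraries were chosen by the names si025 and si033 in their sample titles, which gave 6 of the 9 libraries of the series, 3 per siRNA. The other 3 libraries come from cells given a control siRNA. They enter the estimate of the spread but not the contrast, and are quoted as a reference. VCaP is an established prostate cancer cell line that carries the *TMPRSS2*-*ERG* fusion, and *IGF1R-AS1* is read from the strand opposite to *IGF1R*, the gene of the insulin-like growth factor 1 receptor. Per the labels, cells took up 100 pmol of their siRNA by reverse transfection with RNAiMAX and were collected at 72 h, si025 and si033 were both placed in exon 1 of the transcript, and stranded libraries were made from 1.3 µg of total RNA. The labels do not say whether replicates were separate cultures, while a legend of the study gives 3 biological replicates for the knockdown experiments. How these were grown apart is not stated, so *p* values measure the spread between these libraries. How far each siRNA lowered *IGF1R-AS1* is not given, since its level was not analysed here.

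An siRNA is a short double-stranded RNA. One strand, the guide, is loaded into an Argonaute protein and pairs with a target RNA, which is then cut. Bases 2 to 8 of a loaded strand, the seed, can also pair with short sites in the 3′ untranslated regions (3′ UTRs) of other messages, as a microRNA does, and the second strand, the passenger, can be loaded as well. Because si025 and si033 were aimed at 1 transcript and differ in sequence, the sequences listed by the study are shown first. The labels do not tie si025 or si033 to a listed siRNA, so neither sequence is assigned to a group.
IGF1R-AS1-siRNA-1#, listed strand: agaaagcacugAAGACCUauu
IGF1R-AS1-siRNA-1#, guide: uAGGUCUUcagugcuuucu
IGF1R-AS1-siRNA-2#, listed strand: ccguauugcucAGUGGAAauu
IGF1R-AS1-siRNA-2#, guide: uUUCCACUgagcaauacgg
siRNA negative control, listed strand: uagcgacuaaaCACAUCAa
Capitals mark the guide seed and, in the listed strand, the bases it pairs with. The guide was written as the complement of the first 19 bases of the listed strand. In hg38 the 19 bases of siRNA-1# matched once, at chr15:98843733-98843751 on the minus strand, and those of siRNA-2# once, at chr15:98843694-98843712 on the minus strand. Both sites lie inside the span of *IGF1R*, which is read from the plus strand (chr15:98648539-98964530), and in no exon of GENCODE version 44, that is, in an intron of *IGF1R*. The control sequence had no match in the genome.

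Library totals lay between 12662828 and 22436104 counts with si025, between 11963322 and 28492259 with si033 and between 11649811 and 26760578 with control siRNA, and 14735 to 15474 genes per library had at least 1 count. Replicates differed by more than sampling noise (chi-square per degree of freedom 1.69 to 5.08), and the biological coefficient of variation was 4.13%. In a principal component analysis of the 6 knockdown libraries, the first component held 80.2% of the variance and placed si025 between -32.6 and -30.6 and si033 between 29.7 and 32.9. The second component held 6.98% and separated si033 replicates 1 and 2 (15.6 and -16.3).

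The difference between the siRNAs was broad. Levels are given as CPM, counts scaled to an effective library total of 1000000, and differences as log2(si025/si033), so that 1 is 2-fold and a positive value is higher with si025. Of 12810 genes tested, 7801 (60.9%) were called at an adjusted *p* under 0.05, 3993 (31.2%) of them higher and 3808 (29.7%) lower with si025. Most of these differences were modest: the median absolute log2 difference of the called genes was 0.39, and the median over all genes tested was -0.0015. Of the called genes, 986 (7.70% of those tested) differed at least 2-fold, 712 (5.56%) higher and 274 (2.14%) lower with si025, so that the large differences were mostly an excess with si025. At least 4-fold differences were found for 122 genes higher and 40 lower. The si025 and si033 libraries did not overlap in 969 of the 986 genes and in 7289 (93.4%) of the called genes. Both sets were chosen by this same contrast, so the lack of overlap largely follows from the choice. For 1855 genes (14.5%) the whole 95% interval of the log2 difference lay within 0.2 of 0.

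**Figure D1:**
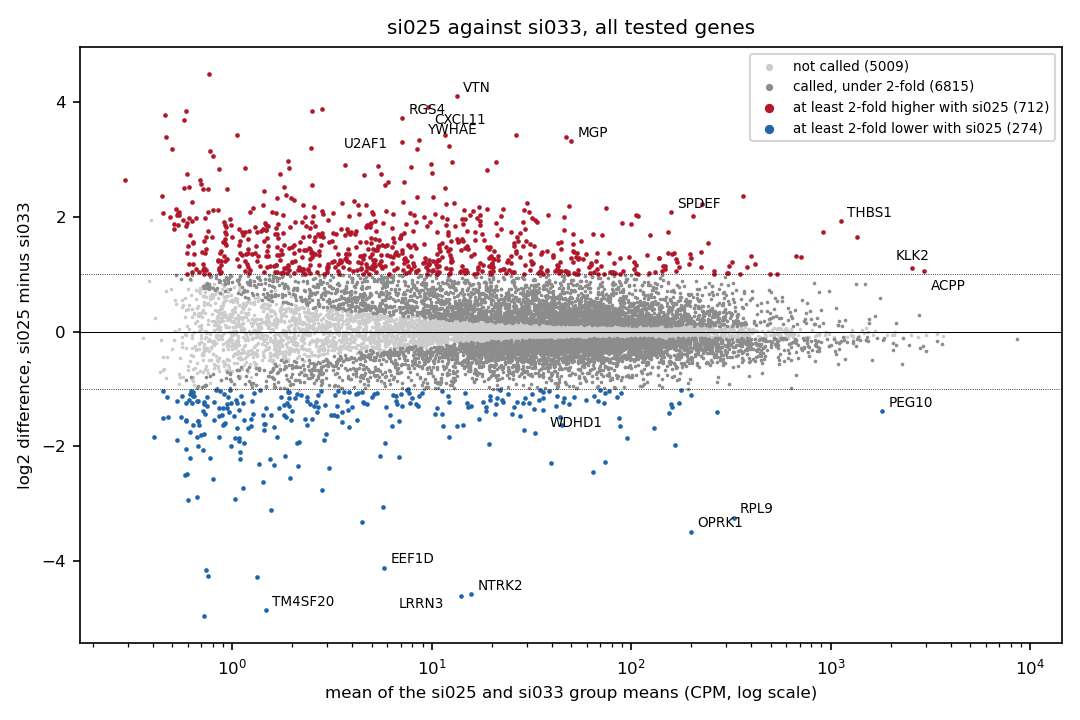
Log2 difference between si025 and si033 (vertical axis, positive where si025 was higher) against the mean level over both groups in CPM (log scale) for the 12810 genes tested, 1 point per gene, with dotted lines at a 2-fold difference. The 712 red points (at least 2-fold higher with si025) outnumber the 274 blue points at all levels, and EEF1D, U2AF1 and YWHAE each rest on 1 library.

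The excess of 2-fold genes with si025 was present at every level of expression. Among genes with a mean under 1 CPM, 91 were at least 2-fold higher and 68 lower with si025, from 1 to 10 CPM 333 and 124, from 10 to 100 CPM 234 and 70, and from 100 CPM 54 and 12. The control libraries, which are not part of the contrast, placed these genes. Of the 712 genes higher with si025, the mean of the control group lay between the means of the siRNAs in 508, above both in 67 and below both in 137, and it was nearer to si033 in 432. Of the 274 genes lower with si025, it lay between in 179, above both in 26 and below both in 69, and it was nearer to si025 in 164. These genes were spread over the genome, with 4.15% (chromosome 13) to 12.998% (chromosome 4) of the genes of a chromosome differing at least 2-fold.

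Among the genes with the largest excess with si025 were secreted, matrix and chemokine genes. *VTN* encodes vitronectin, an adhesive glycoprotein of plasma and matrix. It was at 25.5, 24.96 and 25.2 CPM with si025 and 2.06, 1.32 and 1.24 CPM with si033, and at 2.01, 3.04 and 2.82 CPM with control siRNA (log2 difference 4.11, SE 0.14, adjusted *p* = 4.26e-17). All si025 libraries thus lay above all other libraries. *CXCL11*, a ligand of the receptor CXCR3, was at 16.4, 18.2 and 19.2 CPM with si025 and 1.81, 0.928 and 1.04 CPM with si033 (log2 difference 3.91, SE 0.15, adjusted *p* = 4.81e-16). The groups did not overlap, and the control libraries, at 9.69, 9.50 and 10.04 CPM, lay between them. *MGP* encodes matrix Gla protein, an inhibitor of calcification, and was at 85.7, 96.8 and 90.9 CPM with si025 and 9.06, 9.05 and 9.08 CPM with si033 (log2 difference 3.33, SE 0.07, adjusted *p* = 1.26e-20). Its 3 si033 libraries lay within 0.1 CPM of each other and the control libraries, at 44.3, 42.0 and 45.5 CPM, again lay between. *RGS4*, which shortens signalling by G proteins, was at 14.3, 12.7 and 12.6 CPM with si025 and 0.989, 1.16 and 0.897 CPM with si033 (log2 difference 3.73, SE 0.16, adjusted *p* = 2.92e-15). *TGM4*, the prostate transglutaminase, was at 4.52, 4.47 and 5.04 CPM with si025 and 0.330, 0.619 and 0.173 CPM with si033, and at 3.93, 5.29 and 3.82 CPM with control siRNA (log2 difference 3.85, SE 0.29, adjusted *p* = 5.51e-11). For *TGM4* the si025 and control libraries overlapped and the si033 libraries were low, at 4, 8 and 5 counts.

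The other genes named for a large excess with si025 were *SLPI* (3.89), a secreted protease inhibitor, *PAPSS2* (3.43), which makes the sulfate donor of the cell, *CLSTN2* (3.43), *EML6* (3.40), *MMP10* (3.25), a matrix metalloproteinase, *ART3* (3.21), *CEMIP* (3.19), which takes part in hyaluronan breakdown, and *CRTAM* (2.98), with adjusted *p* values of 6.27e-10 or less. For each of these the si025 and si033 libraries did not overlap. *SLPI* had few counts with si033 (4, 6 and 9). *YWHAE* and *U2AF1*, which met the same rule, rested on 1 library each. *YWHAE* was at 2.26, 43.1 and 1.99 CPM with si025 and 1.32, 1.78 and 1.66 CPM with si033, and without si025 replicate 2 the difference was 0.38 (adjusted *p* = 0.177). *U2AF1* was at 1.09, 1.44 and 36.3 CPM with si025 and 1.15, 1.24 and 1.59 CPM with si033, and without si025 replicate 3 the difference was -0.10 (adjusted *p* = 0.809). Both have near-identical copies among which reads can be lost or split, so their values are uncertain.

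In the other direction, *NTRK2*, *LRRN3* and *OPRK1* were among the genes with the largest differences. *NTRK2* encodes TrkB, the receptor of brain-derived neurotrophic factor, and was at 1.71, 1.14 and 1.11 CPM with si025 and 28.1, 30.5 and 31.8 CPM with si033 (log2 difference -4.58, SE 0.13, adjusted *p* = 1.86e-18). The control libraries, at 1.48, 1.81 and 2.05 CPM, lay near those of si025, so that the si033 libraries stood alone. *LRRN3*, a leucine-rich repeat membrane protein of neurons, was at 1.01, 1.19 and 1.06 CPM with si025 and 28.2, 28.6 and 24.5 CPM with si033, and at 1.75, 1.30 and 0.811 CPM with control siRNA (log2 difference -4.61, SE 0.15, adjusted *p* = 2.93e-17). Here too only the si033 libraries were high. *OPRK1*, the kappa opioid receptor, was at 29.98, 34.3 and 33.1 CPM with si025 and 367, 348 and 381 CPM with si033, and at 106, 108 and 111 CPM with control siRNA (log2 difference -3.48, SE 0.06, adjusted *p* = 6.82e-23). Its control libraries lay between the siRNAs. *SPOCK3*, a matrix proteoglycan, was at 18.5, 18.95 and 21.8 CPM with si025 and 102, 119 and 105 CPM with si033 (log2 difference -2.44, SE 0.07, adjusted *p* = 1.86e-18), and *TGFB3*, a ligand of the TGF-beta receptors, at 1.25, 1.14 and 1.19 CPM with si025 and 11.9, 10.1 and 8.52 CPM with si033 (log2 difference -3.06, SE 0.19, adjusted *p* = 2e-12). Neither gene had overlapping groups, and *TGFB3* was at 0.873, 0.435 and 0.386 CPM with control siRNA, below both.

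*TM4SF20* and *CLRN3*, membrane proteins, met the same rule from few counts. *TM4SF20* had 1, 2 and 2 counts in the si025 libraries against 41, 33 and 76 in the si033 libraries (log2 difference -4.86, SE 0.35, adjusted *p* = 3.08e-11), and *CLRN3* had 1, 6 and 0 against 28, 34 and 77 (log2 difference -4.27, SE 0.40, adjusted *p* = 3.81e-09). The remaining genes were *HOPX* (-3.32), *MEF2C* (-3.11) and *SOX6* (-2.75), which encode regulators of transcription, *SLC22A11* (-2.62), an organic anion carrier, *CLDN11* (-2.54), a claudin, and *ADAMTS16* (-2.37), with adjusted *p* values of 1.23e-07 or less. Of these, *MEF2C* also rested on few counts with si025 (1, 4 and 13, against 30, 42 and 81 with si033). *RPL9*, a ribosomal protein gene, was at 60.9, 69.4 and 56.8 CPM with si025 and 600.3, 634 and 536 CPM with si033, and at 368, 371 and 399 CPM with control siRNA (log2 difference -3.24, SE 0.07, adjusted *p* = 1.26e-20). Its groups were far apart and replicates close, but *RPL9* has near-identical copies, which makes its level uncertain. *EEF1D* was at 0.311, 0.893 and 0.442 CPM with si025 and 1.15, 31.0 and 0.897 CPM with si033, and without si033 replicate 2 the difference was -0.77 (adjusted *p* = 0.082).

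**Figure D2:**
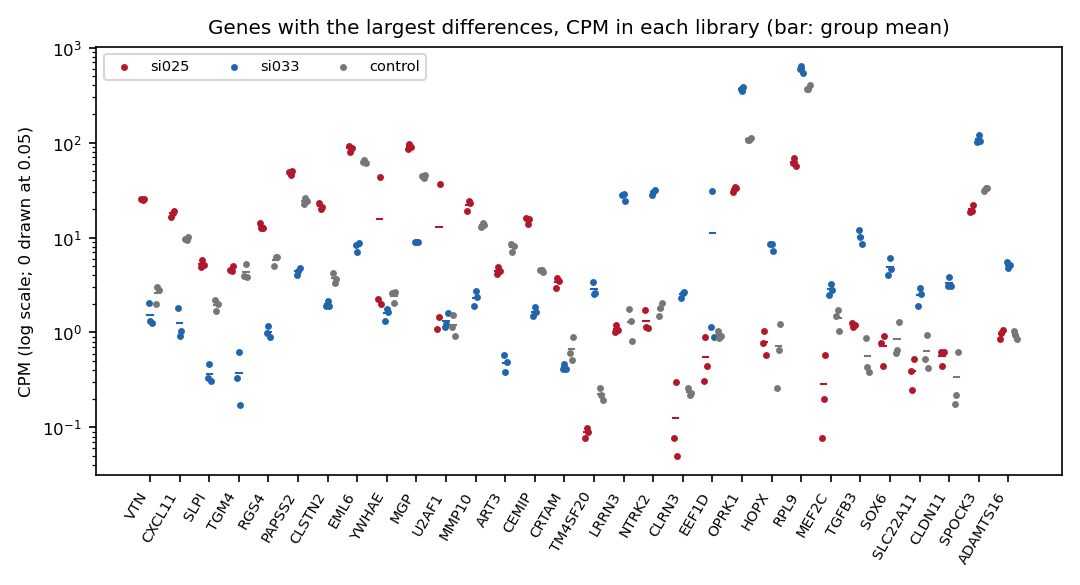
CPM in each library (log scale, 0 drawn at 0.05) for the 30 genes with the largest log2 difference in either direction, 3 points and a bar at the mean for si025 (red), si033 (blue) and control (grey). NTRK2 and LRRN3 were high in the si033 libraries and low in all others, while YWHAE, U2AF1 and EEF1D were high in 1 library.

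The rule on the difference in mean CPM gave 8 genes in each direction. *ACPP*, prostatic acid phosphatase, was at 4059, 3914 and 4004 CPM with si025 and 1803, 1919.6 and 2013 CPM with si033, and at 1689, 1746 and 1854 CPM with control siRNA (log2 difference 1.06, SE 0.04, adjusted *p* = 9.64e-16). *KLK2*, a kallikrein protease, was at 3446, 3689.9 and 3369.9 CPM with si025 and 1657, 1525 and 1680.3 CPM with si033 (log2 difference 1.11, SE 0.04, adjusted *p* = 4.47e-16), with no overlap. *SPON2*, a secreted matrix protein, and *CRISP3*, a cysteine-rich secretory protein, were at 2048 ± 78.3 against 653 ± 32.3 CPM (mean ± SD, n = 3) and 1412 ± 50.9 against 423 ± 25.6 CPM. *THBS1*, the matrix protein thrombospondin 1, was at 1781 ± 137 against 466 ± 2.99 CPM, and *EIF4G2* (1916 ± 59.5 against 1071 ± 31.1 CPM), *AMD1* (1716 ± 51.8 against 965 ± 52.6 CPM) and *NDRG1* (2129 ± 6.32 against 1412 ± 30.6 CPM) completed the rule. In the other direction the rule gave *PEG10*, a gene of retrotransposon origin expressed from the paternal allele, at 1059.6, 931 and 1025 CPM with si025 and 2531, 2678 and 2624 CPM with si033, and at 638, 652 and 631 CPM with control siRNA (log2 difference -1.38, SE 0.04, adjusted *p* = 1.44e-17). Both siRNA groups lay above control and the si033 libraries were highest. *RPL9*, described above, met this rule too, and the other genes differed less on the log2 scale, *RPL3* (-0.56), *RPS3* (-0.49), *RPL4* (-0.29), *RACK1* (-0.22) and *EEF1A1* (-0.13) of the translation machinery and *GAPDH* (-0.34) of glycolysis.

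The share of called members is given below for each gene list and read against the shares of all genes tested, 31.2% higher and 29.7% lower. The lists were written with earlier results of these data known, so their counts describe and do not test. For each library, the list median of log2 CPM was taken relative to the mean of each gene over the 6 knockdown libraries.

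Genes of DNA replication were lower with si025 than with si033. Replication starts when the MCM helicase is loaded at origins by ORC, CDC6 and CDT1 and is fired by CDC45 and the GINS complex. Of 27 such licensing genes, 2 were higher and 23 lower with si025 (median -0.39). Of 38 genes of the fork and of nucleotide supply, 0 were higher and 35 lower (median -0.33). Per library, the licensing median was -0.23 to -0.19 in the si025 libraries, 0.17 to 0.28 in the si033 libraries and 0.49 to 0.56 in the control libraries. The siRNAs did not overlap, and the control libraries were above both. *CDC45* was at 43.5, 51.0 and 47.7 CPM with si025 and 100.04, 102 and 97.4 CPM with si033 (log2 difference -1.07, SE 0.05, adjusted *p* = 7.22e-14). *MCM3*, a helicase subunit, was at 80.8, 83.0 and 78.1 CPM with si025 and 149.97, 156 and 149 CPM with si033 (log2 difference -0.91, SE 0.05, adjusted *p* = 4.59e-14). *WDHD1*, which links the helicase to DNA polymerase alpha, was at 21.2, 19.6 and 19.9 CPM with si025 and 50.5, 53.1 and 52.3 CPM with si033, and at 66.6, 64.3 and 69.0 CPM with control siRNA (log2 difference -1.37, SE 0.06, adjusted *p* = 4.14e-15). In all 3 genes every si025 library lay below every si033 library. Further members named by the rule were *ORC1* (-0.83) and *RPA3* (-0.72), a subunit of the single-strand binding protein. *DBF4* (0.23), the activator of the CDC7 kinase, and *MTBP* (0.21) were the 2 licensing genes higher with si025. The call of *MTBP* was lost without si025 replicate 1 (adjusted *p* = 0.051).

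Many promoters of replication genes carry a site for E2F factors, which drive entry into S phase. The promoter windows of RefSeq (GRCh38.p14, 250 bases before to 50 after the start) were searched on both strands for the letters TTTGGCGC, TTTCCCGC, TTTGCCGC and TTTCGCGC. These strings can overlap each other on opposite strands. Of 9948 tested genes with a window, 525 (5.28%) held at least 1 of them, against 11 of 22 licensing genes and 10 of 33 fork genes. All 11 of these licensing genes and all 10 of these fork genes were called lower with si025. Of the licensing genes without the letters, 8 were called lower, with a median of -0.23 against -0.50. Of the fork genes without the letters, 20 of 23 were called lower, with a median of -0.31 against -0.28. Over all tested genes, the median log2 difference was -0.08 with the letters and 0.0019 without them, and 194 of the 525 genes with them were called lower. The letters CCAAT were searched as well. They were in 13 of 22 licensing genes, all 13 called lower, against 3640 of 9948 tested genes, of which 1228 were called lower. Windows of 30 bases upstream of the start are shown for 3 licensing genes, with the match to the E2F letters in capitals, read along the strand of the gene.
MCM3, chr6:52284898-52284927, minus strand: cggatggtacgTTTCCCGCcaccgcggggc
CDT1, chr16:88803743-88803772, plus strand: ccagggcgcccGCGGGAAAtttggcgggaa
GINS2, chr16:85688967-85688996, minus strand: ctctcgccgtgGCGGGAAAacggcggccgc
A match is a string of letters and was not tested as a binding site.

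The replication-dependent histone genes, which are expressed in S phase, had the lowest median of the lists with at least 10 members tested. Of 27 tested, 0 were higher and 20 lower with si025, 11 of them at least 2-fold (median -0.84). Per library the median was -0.52 to -0.30 in the si025 libraries, 0.42 to 0.45 in the si033 libraries and 0.80 to 0.91 in the control libraries. *HIST1H3H* was at 2.49, 2.18 and 1.95 CPM with si025 and 6.26, 6.11 and 6.45 CPM with si033 (log2 difference -1.54, SE 0.15, adjusted *p* = 1e-08). Further members were *HIST2H2AC* (-1.56), from few counts (1, 11 and 6 with si025), and *HIST1H2BG* (-1.52). Levels of this family were low and its members are near-identical in sequence, so single members are uncertain. Repair of breaks by homologous recombination also acts in S phase. Of 35 such genes and genes of the Fanconi pathway, 3 were higher and 26 lower with si025 (median -0.31). *EXO1*, a nuclease that resects DNA ends, was at 23.2, 24.96 and 26.0 CPM with si025 and 50.02, 47.6 and 50.01 CPM with si033 (log2 difference -0.99, SE 0.06, adjusted *p* = 1.22e-12). *BRCA1* (-0.78) and *XRCC2* (-0.83) were lower too, whereas *RAD51C* (0.57), *RAD50* (0.23) and *ATR* (0.17) were higher with si025. The call of *ATR* was lost without si025 replicate 3 or without si033 replicate 1 (adjusted *p* = 0.0575 and 0.0601).

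Genes of mitosis differed in the same direction by less. Of 34 mitotic kinases and regulators, 1 was higher and 28 lower with si025 (median -0.24), and of 42 kinetochore and spindle genes, 2 were higher and 29 lower with si025 (median -0.27). No member of either list reached 2-fold. Per library, the median of the mitotic regulators was -0.15 to -0.10 in the si025 libraries, 0.10 to 0.17 in the si033 libraries and 0.47 to 0.49 in the control libraries. *AURKB*, the kinase of the chromosomal passenger complex, was at 23.9, 26.3 and 24.8 CPM with si025 and 38.2, 36.0 and 35.4 CPM with si033 (log2 difference -0.54, SE 0.06, adjusted *p* = 1.04e-07). *PLK4* (-0.49), the kinase of centriole duplication, *MAD2L1* (-0.48), a checkpoint protein, *KNTC1* (-0.72), *CDCA8* (-0.67) and *CENPM* (-0.67) were lower with si025. *BUB3* (0.29), *ECT2* (0.41) and *CASC5* (0.35) were higher. The letters TTTGAA, the core of the CHR element of late cell cycle promoters, were in 13 of 26 windows of the mitotic regulators and in 21 of 33 of the kinetochore genes, against 918 of 9948 (9.23%). Of the mitotic regulators, 12 of the 13 genes with these letters were called lower (median -0.34) and 9 of 13 without them (median -0.21). The kinetochore genes had the opposite order, with 13 of 21 called lower with the letters (median -0.21) and 9 of 12 without (median -0.28). Of the condensin subunits, 7 of 8 were lower, among them *NCAPG2* (-0.45) and *NCAPD2* (-0.34). The kinesin motors were split, with 13 higher and 14 lower of 34. Those lower included the mitotic motors *KIF14* (-0.50), *KIF2C* (-0.45) and *KIF11* (-0.44), and those higher included the transport motors *KIF13B* (1.30) and *KIF5C* (0.9996).

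Of 15 genes of CTCF and the cohesin complex, which holds sister chromatids together and shapes chromatin loops, 2 were higher and 8 lower with si025 (median -0.16). *SMC3*, a core subunit of cohesin, was at 122, 125 and 129 CPM with si025 and 225, 223 and 219.7 CPM with si033 (log2 difference -0.83, SE 0.04, adjusted *p* = 1.73e-13), without overlap and with the control libraries (205, 209 and 222 CPM) near si033. *ESCO2* (-0.68), *CDCA5* (-0.62) and *CTCF* (-0.30) were also lower, and *NIPBL* (0.29), the loader of cohesin, was higher with si025. Of 23 genes of the G1/S transition, 5 were higher and 15 lower with si025 (median -0.21). The lower genes included *SKP2* (-0.77), which marks CDK inhibitors for degradation, *CDC25A* (-0.77), a phosphatase that activates CDKs, and *CDK6* (-1.93), at 1.17, 0.893 and 0.752 CPM with si025 and 3.46, 2.86 and 3.83 CPM with si033. On the other side stood *CCNE1* (0.43), *RB1* (0.30) and *TFDP1* (0.27). Of 6 CDK inhibitors, 2 were higher and 2 lower. *CDKN1A*, which encodes p21, was at 50.5, 53.9 and 52.7 CPM with si025 and 13.8, 14.2 and 13.04 CPM with si033, and at 30.1, 32.4 and 31.1 CPM with control siRNA (log2 difference 1.95, SE 0.06, adjusted *p* = 2.37e-17). Its control libraries lay between the siRNAs. *CDKN2A* was higher as well (4.99 ± 0.152 against 2.06 ± 0.312 CPM), whereas *CDKN2D* (-0.44) and *CDKN2C* (-0.37) were lower.

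**Figure D3:**
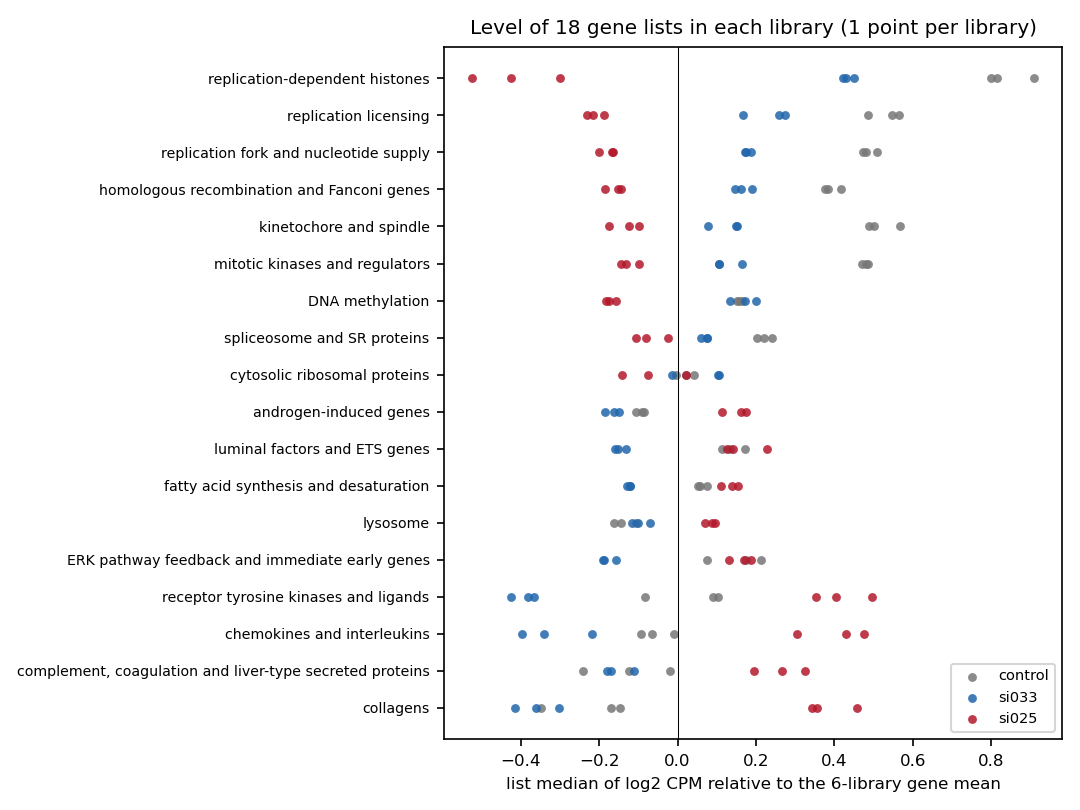
List median of log2 CPM relative to the 6-library mean of each gene (horizontal axis), 1 point per library, for 18 of the lists. The si025 (red) and si033 (blue) libraries do not overlap in any list shown but the cytosolic ribosomal proteins, and the control libraries (grey) lie above both siRNAs for the replication, repair, mitotic and spliceosome lists.

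Genes of protein synthesis leaned lower with si025, by small amounts. Of 46 genes of ribosome biogenesis, 2 were higher and 24 lower with si025 (median -0.13), among them *NOC2L* (-0.47), *TCOF1* (-0.46) and *FBL* (-0.40), the fibrillarin of the nucleolus. *DDX18* (0.21) and *RRP1B* (0.26) were higher. Of 82 cytosolic ribosomal proteins, 4 were higher and 45 lower with si025 (median -0.12), with *RPS2* at 873 ± 66.6 against 1292 ± 91.6 CPM. The medians of this list overlapped between the libraries of the siRNAs (-0.14 to 0.02 in the si025 libraries, -0.01 to 0.10 in the si033 libraries and -0.0030 to 0.04 in the control libraries). Of 74 mitochondrial ribosomal proteins, 7 were higher and 27 lower with si025 (median -0.08), and of 42 translation factors, 10 were higher and 22 lower with si025 (median -0.15). The factors lower with si025 included *EIF4EBP2* (-0.59), a repressor of translation initiation, and *EIF3C* (-1.16). The libraries of *EIF3C* overlapped, and its call was lost with DESeq2 and without si033 replicate 3 (-0.37, adjusted *p* = 0.223). *EIF4G2* and *EIF4G3* (0.66) were higher. Of 75 nuclear-encoded subunits of oxidative phosphorylation, 8 were higher and 36 lower with si025 (median -0.13). *COX8A* (-0.43) was lower and *UQCRB* (0.74) and *NDUFS6* (0.56) higher, and the library medians of that list also overlapped. With offsets for gene length and GC content the medians were -0.03 for the cytosolic and -0.02 for the mitochondrial ribosomal proteins, -0.10 for the translation factors and -0.04 for oxidative phosphorylation.

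Chromatin and RNA processing genes leaned the same way. Of 15 DNA methylation genes, 3 were higher and 10 lower with si025 (median -0.34), among them *HELLS* (-0.73), a remodeler needed for methylation, *UHRF1* (-0.54), which recruits the maintenance methyltransferase, and *TDG* (-0.54), whereas *TET3* (0.21) and *MBD3* (0.19) were higher. Of 49 SWI/SNF, ISWI and CHD remodelers, 6 were higher and 24 lower with si025 (median -0.14). *BCL7A*, a SWI/SNF subunit, was at 17.5, 19.4 and 18.4 CPM with si025 and 48.0, 45.2 and 47.3 CPM with si033 (log2 difference -1.34, SE 0.06, adjusted *p* = 6.95e-15), and *ACTL6A* (-0.67), *SMARCA1* (-0.65) and *SMARCA4* (-0.41) were also lower. *SMARCA2* (0.40), the alternative ATPase to SMARCA4, and *BAZ1A* (0.51) were higher. Of 46 Polycomb and histone methylation genes, 7 were higher and 24 lower with si025 (median -0.16), among them *CBX7* (-0.98), *CBX2* (-0.76) and *PHF19* (-0.62). Of 51 spliceosome and SR proteins, 9 were higher and 29 lower with si025 (median -0.15), including *SF3B1* (-0.52), and of 51 nuclear pore and transport genes, 10 were higher and 26 lower with si025 (median -0.15), including *SEH1L* (-0.71). Of 25 genes of RNA interference, the machinery that siRNAs use, 5 were higher and 12 lower with si025 (median -0.12). *AGO2*, the Argonaute that cuts targets, was at 185, 155 and 173 CPM with si025 and 229.7, 232 and 238 CPM with si033 (log2 difference -0.45, SE 0.05, adjusted *p* = 6.19e-08), with no overlap, while *CNOT8* (0.94) and *ZCCHC6* (0.62) were higher. Of 11 genes of the MYC network, 2 were higher and 6 lower with si025. *MYC* was at 262, 267 and 245 CPM with si025 and 320.2, 307 and 303 CPM with si033, and at 439.7, 457 and 435 CPM with control siRNA (log2 difference -0.26, SE 0.04, adjusted *p* = 1.74e-05). *MYCL* was higher with si025 (12.5 ± 0.871 against 5.51 ± 0.867 CPM).

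Genes of the prostate luminal lineage were higher with si025. Luminal cells are the secretory cells of the prostate gland, and androgens induce many of their genes. Of 40 androgen-induced genes, 26 were higher and 9 lower with si025 (median 0.25), with 10 and 1 at least 2-fold. Of 19 luminal and ETS factors, 12 were higher and 4 lower with si025 (median 0.27). *SPDEF*, an ETS factor of secretory epithelium, was at 256, 265 and 247 CPM with si025 and 55.8, 60.4 and 63.4 CPM with si033, and at 110.2, 119 and 106 CPM with control siRNA (log2 difference 2.09, SE 0.05, adjusted *p* = 4.69e-19). The groups were apart and control lay between. *PGR*, the progesterone receptor, was at 11.3, 8.19 and 10.1 CPM with si025 and 2.47, 2.94 and 2.86 CPM with si033, and at 19.6, 18.4 and 19.5 CPM with control siRNA, above both. *ALDH1A3* (1.37), *STEAP4* (1.34), *KLK3* (1.0002) and *ERG* (0.68) were higher with si025 as well. Members lower with si025 were *MAF* (-1.64), *ADAM7* (-0.70), *SGK1* (-0.57), *NR3C1* (-0.43), which encodes the glucocorticoid receptor, and *KLF5* (-0.24). The call of *KLF5* was lost with DESeq2 (adjusted *p* = 0.0507) and without si025 replicate 3 (adjusted *p* = 0.0564).

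Androgens are inactivated in prostate cells by UGT2B glucuronosyltransferases and interconverted by steroid dehydrogenases. Of 16 genes of steroid metabolism, 3 were higher and 8 lower with si025 (median -0.29). *UGT2B17* was at 14.1, 12.7 and 13.7 CPM with si025 and 61.6, 68.8 and 65.8 CPM with si033, and at 32.6, 29.1 and 33.7 CPM with control siRNA (log2 difference -2.28, SE 0.07, adjusted *p* = 6.65e-18). Every si025 library lay below control and every si033 library above it. *UGT2B11* (-1.01), a close paralog whose counts can be shared with it, and *AKR1C1* (-1.30), a hydroxysteroid dehydrogenase, were lower with si025. *HSD17B2* (2.53), an oxidising dehydrogenase of low level (1.05 ± 0.316 against 0.162 ± 0.0754 CPM), *HSD17B6* (1.01) and *HSD17B4* (0.48) were higher.

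Lipid genes split by pathway. Of 19 genes of fatty acid synthesis, activation and desaturation, 13 were higher and 3 lower with si025 (median 0.26). *ACSL3*, which activates long-chain fatty acids, was at 662, 642 and 696 CPM with si025 and 309.8, 342 and 337 CPM with si033 (log2 difference 1.01, SE 0.05, adjusted *p* = 6.24e-15), and *ACSS2*, which makes acetyl-CoA from acetate, was at 179, 176 and 178 CPM with si025 and 91.9, 81.8 and 86.1 CPM with si033 (log2 difference 1.04, SE 0.05, adjusted *p* = 8.91e-15). *ELOVL7* (1.21), an elongase, was higher too. Neither of the first pair had overlapping groups. Of 25 genes of cholesterol synthesis and uptake, 4 were higher and 10 lower with si025 (median -0.12). *HMGCS1* (-0.61), an enzyme of the mevalonate pathway, and *SREBF2* (-0.54), the factor that drives the pathway, were lower, and *TM7SF2* (1.02), a sterol reductase, and *STARD4* (0.80) were higher with si025. Of 34 glycolysis and hypoxia genes, 8 were higher and 15 lower with si025 (median -0.12), with *PDK1* (-0.73) and *VEGFA* (-0.60) lower and *EPAS1* (1.39), the factor HIF-2 alpha, *ADM* (1.31) and *SLC2A3* (2.05), a glucose carrier, higher. *EPAS1* was at 75.8, 71.4 and 76.1 CPM with si025 and 27.8, 29.5 and 28.0 CPM with si033 (log2 difference 1.39, SE 0.06, adjusted *p* = 4.37e-15). The SLC carriers numbered 208 tested, of which 91 were higher and 51 lower with si025 (median 0.09) and 25 against 5 were at least 2-fold. With a mean of at least 5 CPM required, the median of this list was 0.02. *SLC2A10*, a further glucose carrier, was at 9.19, 10.8 and 9.99 CPM with si025 and 1.57, 1.93 and 1.62 CPM with si033 (log2 difference 2.57, SE 0.15, adjusted *p* = 7.73e-13), and *SLC38A4* (-2.34), an amino acid carrier, was lower. Of 27 ABC transporters, 10 were higher and 7 lower. *ABCC3* (1.84), an exporter of organic anions, and *ABCG1* (1.55), an exporter of cholesterol, were among those higher.

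Genes of the extracellular matrix and of cell adhesion were mostly higher with si025. Of 21 collagens, 16 were higher and 2 lower with si025 (median 0.72), 8 of them at least 2-fold higher and 0 at least 2-fold lower. Per library, the collagen median was 0.34 to 0.46 in the si025 libraries, -0.41 to -0.30 in the si033 libraries and -0.35 to -0.15 in the control libraries. *COL9A2*, a chain of a fibril-associated collagen, was at 48.4, 52.6 and 48.0 CPM with si025 and 11.8, 10.8 and 12.2 CPM with si033, and at 16.3, 16.8 and 13.4 CPM with control siRNA (log2 difference 2.09, SE 0.08, adjusted *p* = 3.08e-16). *COL5A2*, a chain of fibrillar collagen V, was at 8.41, 7.15 and 8.84 CPM with si025 and 2.22, 1.70 and 1.97 CPM with si033, and at 13.1, 13.6 and 13.5 CPM with control siRNA (log2 difference 2.05, SE 0.14, adjusted *p* = 2.48e-11). Both genes separated the siRNAs, but control lay near si033 for *COL9A2* and above both for *COL5A2*. *COL5A1* (1.91) was higher too, and the basement membrane chain *COL4A2* (-0.68) was lower with si025. Of 40 other matrix proteins, 20 were higher and 8 lower with si025 (median 0.19), with 12 and 3 at least 2-fold. Beside *VTN*, *MGP* and *THBS1*, *LAMA4*, a laminin chain, was higher from low counts (18, 26 and 33 against 1, 4 and 3), while *LTBP2* (-1.68), *LAMA1* (-1.32) and *LAMB3* (-1.04) were lower. Of 15 matrix proteases and inhibitors, 8 were higher and 3 lower with si025 (median 0.44), with *PLAT* (1.33), the tissue plasminogen activator, higher and *PLAUR* (-0.57), the urokinase receptor, lower.

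Of 17 integrins, the receptors that bind matrix, 9 were higher and 4 lower with si025 (median 0.26). *ITGA5*, the alpha chain of the fibronectin receptor, was at 5.996, 5.41 and 6.54 CPM with si025 and 1.15, 0.619 and 1.62 CPM with si033 (log2 difference 2.25, SE 0.21, adjusted *p* = 2.5e-09). *ITGB4* (1.52) and *ITGB6* (1.38) were higher, and *ITGB8* (-0.98) and *ITGA9* (-0.83) lower with si025. *ITGB6* had few counts with si033 (3, 5 and 10). Of 24 cadherins and catenins, which join cells to each other, 15 were higher and 5 lower with si025 (median 0.31). *CDH17*, a cadherin of intestinal epithelium, was at 5.45, 4.71 and 5.79 CPM with si025 and 20.1, 19.7 and 17.7 CPM with si033, and at 2.36, 2.25 and 2.01 CPM with control siRNA (log2 difference -1.84, SE 0.11, adjusted *p* = 7.17e-13). The si033 libraries were highest and the control libraries below both groups. *FAT4* (1.70), *DSC1* (1.36) and *CDH26* (1.35) were higher and *FAT3* (-1.61) lower. The claudins and tight junction genes did not lean to a side, with 6 higher and 6 lower of 21, *CLDN1* (1.51) and *CLDN11* standing at the ends. Of 7 keratins, 4 were higher, among them *KRT18* (0.81) of luminal cells, and 1 lower, *KRT19* (-0.66).

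Most of the listed receptors, ligands and feedback genes of growth factor signalling were higher with si025. Of 27 receptor tyrosine kinases and ligands, 18 were higher and 4 lower with si025 (median 0.78), 11 of them at least 2-fold higher and 0 at least 2-fold lower. Per library the median was 0.35 to 0.50 in the si025 libraries, -0.42 to -0.37 in the si033 libraries and -0.08 to 0.10 in the control libraries. *ROR1*, an orphan receptor that binds Wnt ligands, was at 25.8, 20.2 and 23.6 CPM with si025 and 6.67, 6.65 and 6.94 CPM with si033 (log2 difference 1.76, SE 0.09, adjusted *p* = 1.59e-13), and *PDGFC*, a ligand of the PDGF receptors, was at 3.04, 3.52 and 5.35 CPM with si025 and 0.659, 1.24 and 1.21 CPM with si033 (log2 difference 1.91, SE 0.24, adjusted *p* = 3.35e-07). *DDR2* (1.59), a collagen receptor, was higher, and *ERBB3* (-0.49) and *FGFR2* (-0.73) were lower. The receptors *NTRK2* and, from low counts, *EPHA7*, and the ligand *EFNA5* also belong to this class but were counted in other lists. All were at least 2-fold lower with si025. Activated ERK induces phosphatases and Sprouty proteins that damp it. Of 24 such feedback and immediate early genes, 15 were higher and 2 lower with si025 (median 0.30). *SPRY4*, a Sprouty of low count, had 29, 31 and 44 counts with si025 against 6, 0 and 3 with si033 (log2 difference 3.43, SE 0.44, adjusted *p* = 5.4e-07). *DUSP10* (1.65) and *PHLDA1* (1.36) were higher and *DUSP7* (-0.63) and *JUND* (-0.36) lower. Of 11 RGS proteins, 8 were higher, *RGS4*, *RGS17* (1.75) and *RGS5* (1.55) by the most, and 1, *RGS3* (-0.32), was lower.

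Of 17 Notch genes, 9 were higher and 3 lower with si025 (median 0.28). *HES1*, the classic Notch-induced repressor, was at 10.9, 11.3 and 13.5 CPM with si025 and 2.14, 2.17 and 2.86 CPM with si033, and at 5.59, 4.06 and 5.33 CPM with control siRNA (log2 difference 2.26, SE 0.15, adjusted *p* = 8.7e-12), with control between the siRNAs, and *HES2* (2.03) was higher as well. Of 34 TGF-beta and BMP genes, 18 were higher and 8 lower with si025 (median 0.25), and the median was 0.08 where a mean of at least 5 CPM was required. *GDF15* (1.96), a stress-induced ligand, and *TGFBR2* (1.5030), the type II receptor, were higher and the ligand *TGFB3* lower with si025. *BAMBI* (2.84), a decoy receptor, was higher from low counts (23, 28 and 32 against 2, 2 and 7). The Wnt, IGF and Hippo lists did not lean to a side. Of 27 Wnt genes, 10 were higher and 9 lower, and their median changed sign without si025 replicate 1 or 3 or without si033 replicate 2 or 3. Receptors of that pathway moved apart. *FZD4* was at 179, 158 and 175 CPM with si025 and 40.5, 43.2 and 40.7 CPM with si033 (log2 difference 2.04, SE 0.06, adjusted *p* = 9.93e-19), and *FZD7* at 1.79, 2.38 and 1.72 CPM with si025 and 9.48, 9.36 and 8.14 CPM with si033 (log2 difference -2.16, SE 0.16, adjusted *p* = 7.7e-11). Of 22 genes of the IGF and insulin axis, 9 were higher and 10 lower. The IGF-binding proteins *IGFBP5* (-2.19) and *IGFBP3* (-0.89) were lower with si025, and *IGFBP7* (1.15) and *IGFBPL1* (1.08) higher. *IGFBP3* was at 140.5, 128 and 139 CPM with si025 and 263, 262 and 229.9 CPM with si033, and at 55.7, 55.2 and 46.8 CPM with control siRNA, below both. Of 16 Hippo genes, 6 were higher and 5 lower, and *YAP1*, the co-activator of the pathway, was at 84.5, 82.4 and 87.2 CPM with si025 and 34.7, 41.4 and 39.6 CPM with si033 (log2 difference 1.13, SE 0.06, adjusted *p* = 7.25e-14).

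Of 28 p53 targets, 14 were higher and 5 lower with si025 (median 0.16). Beside *CDKN1A*, *BTG2*, an antiproliferative gene, was at 45.1, 45.6 and 45.3 CPM with si025 and 10.3, 12.9 and 12.5 CPM with si033, and at 33.1, 36.0 and 34.4 CPM with control siRNA (log2 difference 1.91, SE 0.07, adjusted *p* = 2.13e-16), and *TP53I3* (1.56) was higher. The death genes of the list, *PMAIP1* (-0.74) and *BBC3* (-0.57), which encode NOXA and PUMA, were lower with si025. The call of *BBC3* was lost without si025 replicate 3 (adjusted *p* = 0.0688). Of 16 genes of the BCL2 family, 3 were higher and 8 lower with si025 (median -0.18). *BMF*, a pro-apoptotic member, was at 33.0, 30.8 and 34.0 CPM with si025 and 62.8, 59.9 and 61.4 CPM with si033 (log2 difference -0.91, SE 0.06, adjusted *p* = 1.71e-12), and *BID* (0.76) was higher.

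Secreted immune genes were higher with si025, while interferon-stimulated genes as a list lay closer to the background. Of 14 chemokines and interleukins, 9 were higher and 3 lower with si025 (median 0.66). *CXCL10*, which shares its receptor with *CXCL11*, was at 7.55, 8.09 and 8.36 CPM with si025 and 1.07, 0.851 and 1.45 CPM with si033, and at 2.62, 2.68 and 2.70 CPM with control siRNA (log2 difference 2.73, SE 0.17, adjusted *p* = 3.11e-12). *CXCL9*, the third ligand of that receptor, had 8, 26 and 31 counts against 0, 2 and 2. *CXCL8* (-0.97), *CCL28* (-0.81) and *TNFSF15* (-1.11) were lower with si025. Of 21 NF-kB targets, 10 were higher and 2 lower with si025 (median 0.10). *ICAM1*, an adhesion molecule for leukocytes, was at 9.81, 9.83 and 9.28 CPM with si025 and 2.55, 1.78 and 2.31 CPM with si033 (log2 difference 2.1046, SE 0.15, adjusted *p* = 1.67e-11), and *BCL3* (2.04) and *TNFAIP8* (1.43) were higher. Of 36 interferon-stimulated genes, 12 were higher and 7 lower with si025 (median 0.08), with *DDX58* (0.73), the RNA sensor RIG-I, *IRF9* (0.69) and *SAMD9* (1.05) higher and *IFI44* (-1.27) and *PARP14* (-0.54) lower. Of 9 genes of antigen presentation, 6 were higher and 0 lower, among them *NLRC5* (1.45) and *ERAP1* (0.89). Of 25 complement, coagulation and liver-type secreted proteins, 15 were higher and 5 lower with si025 (median 0.56), and 11 against 2 were at least 2-fold. With a mean of at least 5 CPM required, the median of this list was 0.15 and that of the antigen presentation genes 0.10, against 0.32. *ALB*, albumin, was at 179, 172 and 174 CPM with si025 and 40.7, 42.5 and 44.6 CPM with si033, and at 209.5, 221 and 222 CPM with control siRNA (log2 difference 2.03, SE 0.05, adjusted *p* = 2.11e-19), so that the si033 libraries were the low ones. *F13A1* (2.21) of coagulation was higher, and *C1R* (-1.23) and *CLU* (-0.99), clusterin, were lower.

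In lists of the endomembrane system more members were called higher than lower with si025, with small medians outside the lysosome list. Of 43 lysosome genes, 25 were higher and 8 lower with si025 (median 0.23). *TFEB*, the factor that drives lysosome genes, was at 17.6, 18.8 and 17.7 CPM with si025 and 6.34, 7.74 and 6.21 CPM with si033 (log2 difference 1.44, SE 0.10, adjusted *p* = 3.53e-11), and *SCARB2* (0.70) and *NAGLU* (0.48) were higher, whereas *MCOLN1* (-0.49) was lower. Of 34 autophagy genes, 15 were higher and 7 lower with si025 (median 0.06), with *WIPI1* (0.94) and *GABARAPL1* (0.73) higher and *GABARAPL2* (-0.77) lower. Of 53 genes of folding and secretion, 26 were higher and 14 lower with si025 (median 0.10). Their summed level was not higher with si025, at 13917.5 to 14350 CPM against 14124.9 to 14781.9 CPM with si033. *CREB3L1*, a membrane-bound factor of secretory cells, was at 23.4, 21.2 and 22.7 CPM with si025 and 3.13, 2.79 and 2.80 CPM with si033, and at 2.44, 1.67 and 2.16 CPM with control siRNA (log2 difference 2.96, SE 0.11, adjusted *p* = 4.79e-16), and *CREB3L4* (1.29) and *KDELR3* (1.09) were higher. *CRELD2* (-0.53) and *MANF* (-0.41), genes induced by misfolded protein, were lower. Of 32 tRNA synthetases and ATF4 targets, 8 were higher and 9 lower. *NARS*, the asparaginyl-tRNA synthetase, was at 266, 268 and 279.5 CPM with si025 and 117, 119 and 122 CPM with si033, and at 281, 282 and 291 CPM with control siRNA (log2 difference 1.18, SE 0.04, adjusted *p* = 1.53e-16), low with si033 alone. *PSAT1* of serine synthesis was at 43.8, 44.1 and 42.5 CPM with si025 and 105, 102 and 102 CPM with si033 (log2 difference -1.24, SE 0.05, adjusted *p* = 5.96e-16). The chaperone, proteasome, NRF2 and metallothionein lists had 4 and 9 of 28, 3 and 10 of 34, 7 and 5 of 22, and 1 and 2 of 6 members higher and lower.

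**Figure D4:**
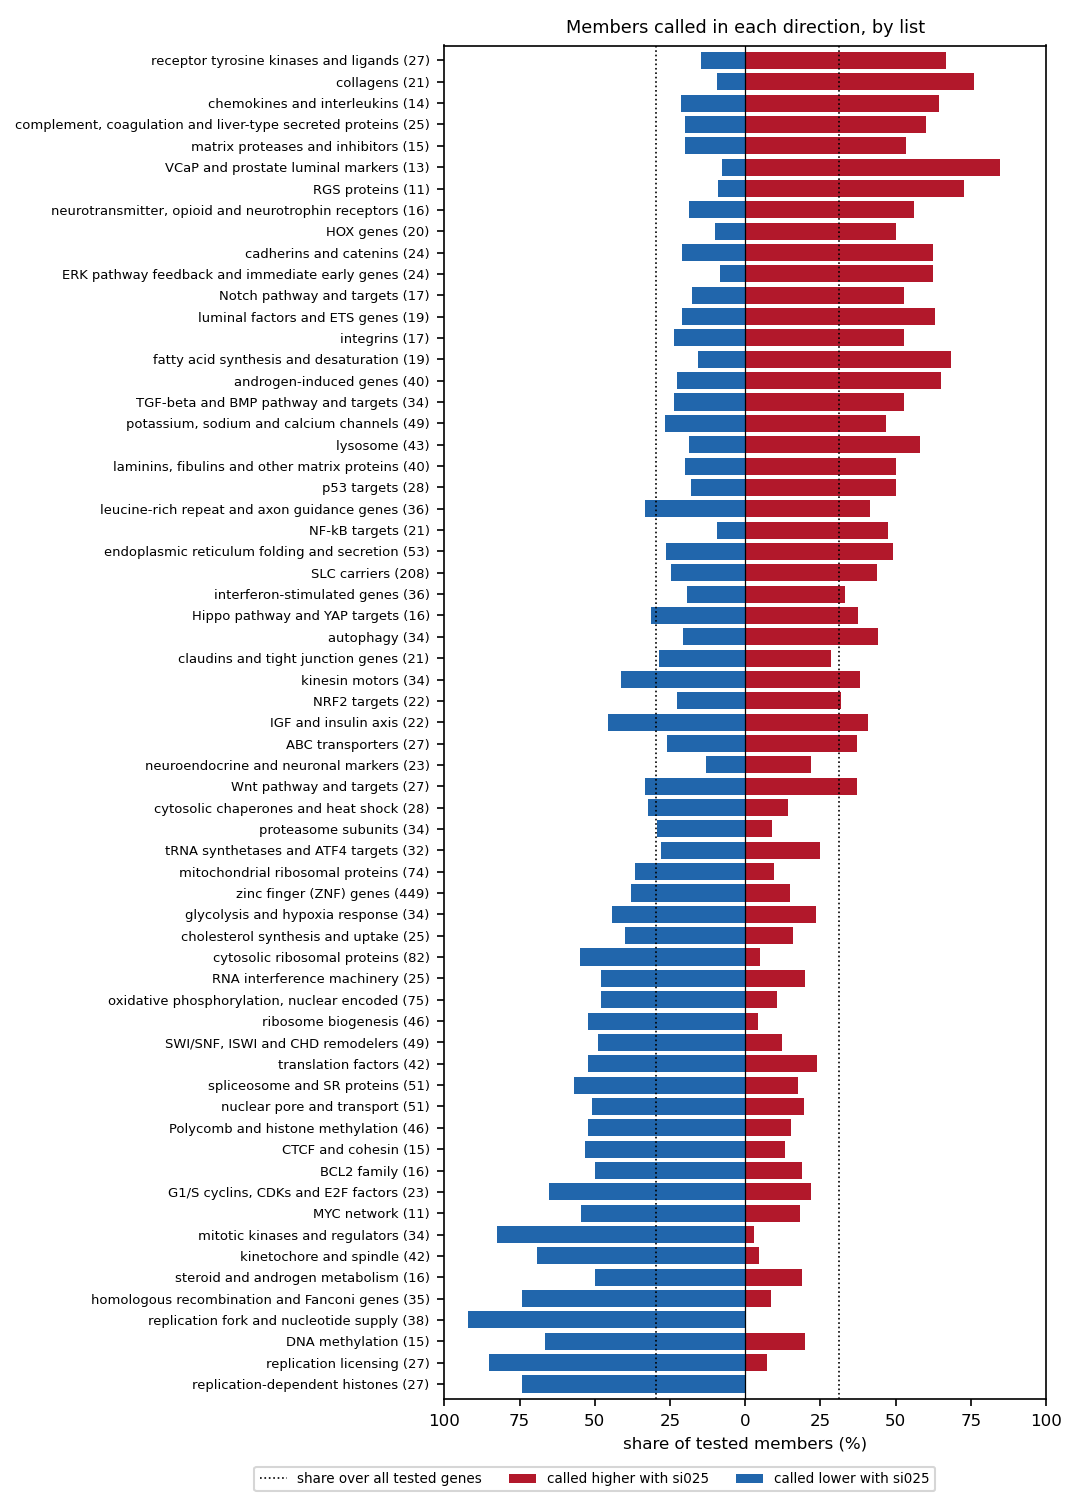
Share of tested members called higher (red, to the right) and lower (blue, to the left) with si025 for the 63 lists with at least 10 members tested (number in parentheses), ordered by median log2 difference, with dotted lines at the shares over all genes tested (31.2% and 29.7%). Replication, histone and repair lists lie at the bottom with few members higher, and receptor tyrosine kinases, collagens and chemokines at the top.

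The lists that hold *NTRK2*, *OPRK1* and *LRRN3*, which were far higher with si033, had members on both sides. Of 16 neurotransmitter, opioid and neurotrophin receptors, 9 were higher and 3 lower with si025 (median 0.37). *SSTR1* (-1.31), a somatostatin receptor, was lower too, but *RET* (1.41), *DRD2* (0.99) and *GRPR* (0.77) were higher. Of 36 leucine-rich repeat and axon guidance genes, 15 were higher and 12 lower, with *EPHA7* (-2.20, from low counts) and *EFNA5* (-1.44) lower and *PLXNA2* (1.48) and *RELN* (1.23) higher. Of 49 potassium, sodium and calcium channels, 23 were higher and 13 lower with si025 (median 0.24), with *CACNB4* (2.09) and *KCNA2* (2.09) higher and *KCNJ12* (-1.07) and *KCNK15* (-1.06) lower. *CACNB4* had few counts with si033 (4, 3 and 8). Of 23 neuroendocrine and neuronal markers, only 5 were higher and 3 lower. *L1CAM*, an adhesion molecule of neurons, was at 12.5, 10.7 and 12.1 CPM with si025 and 3.46, 2.86 and 3.21 CPM with si033 (log2 difference 1.88, SE 0.14, adjusted *p* = 7.33e-11), and *NCAM1* (1.34) was higher, while *TUBB3* (-0.63) and *MAP2* (-0.54) were lower. Of 449 ZNF genes, 67 were higher and 170 lower with si025 (median -0.09), almost all by less than 2-fold (0 and 2). *ZNF432* (0.92) and *ZNF624* (-1.08) stood at the ends. Of 20 HOX genes, 10 were higher, *HOXB6* (2.03) and *HOXD8* (1.48) by the most, and 2 lower, *HOXA13* (-0.40) and *HOXC6* (-0.25). *HOXB6* rested on few counts with si033 (0, 4 and 7).

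The labelled cell type was checked against markers. All 13 VCaP and luminal markers were expressed, and 11 of them were higher and 1, *EPCAM* (-0.15), lower with si025. Since some markers of fibroblasts are matrix genes, their levels stand here beside the matrix lists. Of 10 fibroblast markers, 3 were tested and 2 were higher with si025, *COL1A1* (3.40 ± 0.472 against 1.504 ± 0.342 CPM) and *LUM* (37.1 ± 3.31 against 8.38 ± 1.01 CPM). Their summed level was 39.0 to 46.2 CPM with si025, 11.6 to 14.5 CPM with si033 and 19.4 to 21.4 CPM with control siRNA. *THY1* had 0 counts over the 6 knockdown libraries, *FAP* 1, *COL1A2* 2, *COL3A1* 8 and *PDGFRA* 10. Of 10 leukocyte markers 2 were tested and neither was called, and *CD3D*, *CD3E*, *MS4A1* and *CSF1R* had 0 counts. Of 8 endothelial markers 3 were tested and higher with si025 (*ENG*, 0.77, *ESAM*, 0.98, and *VWF*, 0.71), and *CDH5* and *CLDN5* had 0 counts. The call of *ESAM* was lost without si033 replicate 1 (adjusted *p* = 0.0529), and that of *VWF* with DESeq2 and without si025 replicate 3, where the difference was 0.36 (adjusted *p* = 0.35), or without si033 replicate 2 or 3. The part of other cell types in the matrix differences was not tested. Of 7 basal markers 2 were tested and higher (*KRT14*, 1.09, and *ITGB4*), and *KRT5* and *KRT6A* had 0 counts. In bulk RNA, fewer cells with a transcript and less transcript per cell cannot be told apart.

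**Figure D5:**
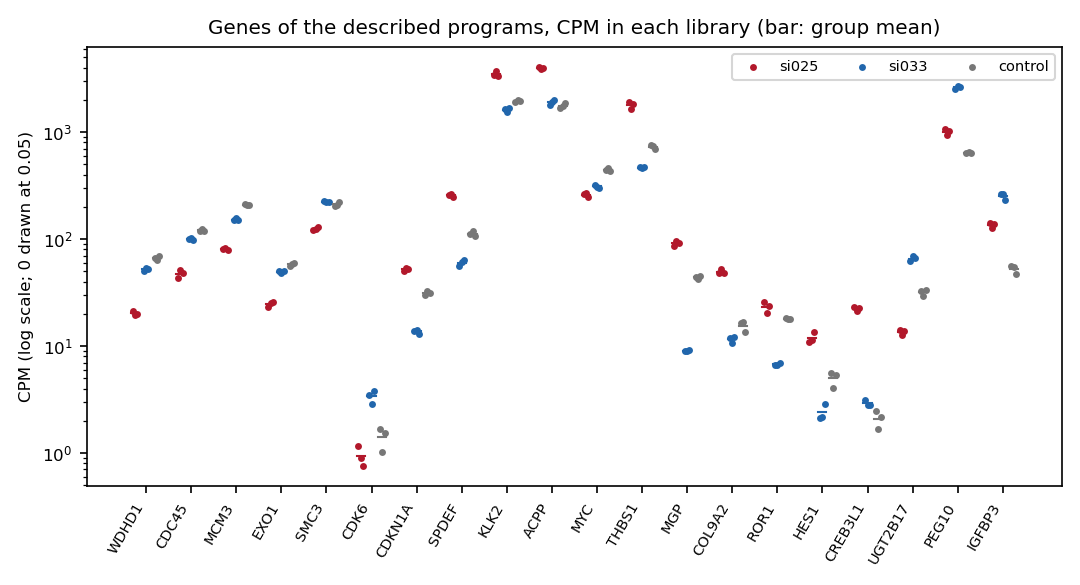
CPM in each library (log scale) for 20 genes of the programs described, with 3 points and a bar at the mean for si025 (red), si033 (blue) and control (grey). WDHD1, CDC45, MCM3 and EXO1 were lowest with si025, and CDKN1A, SPDEF, KLK2, THBS1, MGP and HES1 were higher with si025 than with si033.

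Genes of the targeted locus and reference genes also differed. *IGF1R*, the sense gene, was at 466, 406 and 419 CPM with si025 and 514, 499 and 509 CPM with si033, and at 420.2, 417 and 419.9 CPM with control siRNA (log2 difference -0.24, SE 0.05, adjusted *p* = 7.96e-05). The si025 and si033 libraries did not overlap. Of its neighbours, *SYNM* was lower with si025 (-0.16, adjusted *p* = 0.0308) with overlapping libraries, and its call was lost without si025 replicate 2 or 3 or si033 replicate 1 or 3. *TTC23* was not called (-0.20, 95% interval -0.48 to 0.09). The housekeeping genes *ACTB* (-0.29), *GAPDH* (-0.34) and *TBP* (-0.21) were lower with si025, *TBP* not so without si025 replicate 3 (adjusted *p* = 0.0584). *HPRT1*, a purine salvage enzyme often used as a reference, was at 49.3, 52.7 and 51.7 CPM with si025 and 95.2, 112 and 106 CPM with si033, and at 55.1, 53.2 and 59.4 CPM with control siRNA (log2 difference -1.02, SE 0.06, adjusted *p* = 7.12e-13). Its si033 libraries were about 2-fold above all others.

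A seed can lower messages whose 3′ UTR holds its complement, so the 3′ UTRs of 12600 tested genes (98.4%; GENCODE version 44) were searched for the 7 letters that pair with bases 2 to 8 of each strand. For siRNA-1#, 1426 genes held the guide word AAGACCT and their median log2 difference was -0.033 from that of genes without it, with -0.083 for the 211 genes with at least 2 copies. For the passenger word TGCTTTC the values were -0.034 over 2647 genes and -0.061 over 639. Both differences were slightly negative, but not in every library. Per library, genes with minus genes without the guide word gave 0.0024, -0.049 and -0.0040 with si025 and -0.018, 0.034 and 0.030 with si033. The passenger word gave 0.0069, -0.057 and -0.0080 with si025 and -0.014, 0.029 and 0.032 with si033. For siRNA-2#, the guide word AGTGGAA gave 0.015 (2006 genes) and the passenger word CAATACG 0.048 (177 genes). With at least 2 copies the siRNA-2# guide word gave -0.018 (360 genes). For the control siRNA, which neither group received, the guide word CACATCA gave 0.023 (1462 genes) and the passenger word AGTCGCT -0.0022 (226 genes). With at least 2 copies the control guide word gave 0.051 (193 genes). In the coding sequence the siRNA-1# guide word gave -0.027 and its passenger word -0.0057, the siRNA-2# words 0.011 and 0.058, and the control words -0.0051 and 0.053. In 3′ UTRs of at most 768 bases, the guide words gave -0.175 (siRNA-1#, 100 genes), -0.063 (siRNA-2#, 134 genes) and 0.020 (control, 91 genes). In 3′ UTRs of at least 2206 bases, they gave -0.036, 0.0010 and 0.011. Whether seed pairing took part in these differences was not tested. Per library, the medians of genes with and without a word overlapped between si025 and si033 for each word but CAATACG, for which the si025 libraries were at 0.029 to 0.068 and the si033 libraries at -0.047 to -0.003.

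Longer matches to a whole strand were looked for as well. The longest match of any tested transcript to the 19 bases paired by the siRNA-1# passenger was 16 bases in *SPCS3*, a signal peptidase subunit, which was at 28.9, 27.9 and 29.8 CPM with si025 and 36.9, 45.2 and 44.3 CPM with si033, and at 67.0, 65.6 and 75.6 CPM with control siRNA (log2 difference -0.56, SE 0.07, adjusted *p* = 8.85e-07). It was lower in both groups than in control, and lower with si025. For the guide of siRNA-1#, *ALPK1* held 15 bases and was not called (0.23), and among genes with 14 bases *FGD6* was lower (-0.49) and *NCKAP5* higher (0.98) with si025. For the guide of siRNA-2#, *RAP1GAP*, an inactivator of the small GTPase RAP1, held 14 bases and was at 329, 327 and 328 CPM with si025 and 80.3, 78.0 and 82.7 CPM with si033, and at 166, 157 and 148 CPM with control siRNA (log2 difference 2.02, SE 0.05, adjusted *p* = 1.07e-19). It was far higher with si025, and *FRMPD2*, which also held 14 bases, differed by -0.36. For the passenger of siRNA-2#, *SMYD5* held 14 bases (-0.45). A match of 14 bases to the passenger of the control siRNA, which neither group received, was held by *CCDC88A*, which differed by 1.92.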

How the data were processed

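Total RNA of VCaP cells was sequenced in 9 libraries, assigned to groups by their titles. Per the file headers, the authors made the deposited counts with featureCounts 1.5.2, as whole-number read pairs over exons per gene symbol, without normalization. HISAT2 2.1.0 and hg38 are named in the submitters' processing notes. The headers name a RefSeq annotation and the methods GENCODE, and the labels and methods name different RNA kits. Multi-mapping reads were not counted under that program's defaults, which lowers genes with near-identical copies.

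Counts of 12810 of 19918 symbols passed filterByExpr. All 9 libraries were fitted with 3 group means in edgeR 4.0.16 (R 4.3.3; TMM normalization, quasi-likelihood test, Benjamini-Hochberg over all genes tested), and the contrast was si025 minus si033. Adjusted p values in the text come from that fit unless another tool is named. Genes were called at an adjusted p under 0.05. CPM used TMM-scaled totals, and library totals and replicate spread set its precision. The fit was checked on simulated counts. Alternatives were RLE and upper quartile normalization, no filter, a mean of at least 5 CPM, DESeq2 1.42.0, the 6 knockdown libraries alone, the replicate number as a block, length and GC offsets, glmTreat, other word lengths and regions, and omission of each library.

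Members and the 73 gene lists were chosen with earlier results of these data known. List symbols were matched with RefSeq synonyms where needed. Named genes were the 15 called genes with the largest log2 difference in each direction (mean of at least 2 CPM in the higher group), the 8 with the largest difference in mean CPM in each direction, up to 3 called members per list and direction, 14 fixed genes, and the genes with the longest match to a listed siRNA. Cell type markers with few or no counts were named as a check. Promoters were searched after the values were seen. The targeted transcript and some genes that met these rules are not reported here.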

Additional observations from a re-analysis of the deposited data

How the results depend on the processing

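The counts of called genes kept within 1.5 times the values reported under each alternative run but 2. Between 7023 and 7804 genes were called when 1 of the 9 libraries was left out, and 1023 to 1075 of them differed at least 2-fold. RLE and upper quartile normalization gave 3882 higher and 3952 lower, and 3915 and 3914. With a mean of at least 5 CPM, 494 genes differed at least 2-fold (382 higher and 112 lower), fewer genes being tested. With glmTreat, which tests against a 2-fold difference, 468 were called (360 higher and 108 lower).

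With the replicate number as a block, 7843 genes were called, 4013 higher and 3830 lower, and 991 differed at least 2-fold. Deviations of same-numbered libraries from their group means correlated at -0.0092, 0.012 and 0.12. The highest correlations with a library of another number were 0.18, 0.18 and 0.11. Deviations within so small a group are not independent, so these values cannot decide whether the numbers pair the libraries.

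Of the named genes, 2 changed direction in an alternative. *U2AF1* ranged from -0.0957 (without si025 replicate 3) to 3.88 (without si025 replicate 2), and *CNOT3* from -0.228 to 1.04 under the same pair of omissions. Across the 426 named genes and all alternatives, 34 lost a call at least once while keeping their direction, and 3 gained one. *U2AF1*, not among these 34, lost its call in the run where it changed direction. The median of the Wnt list ranged from -0.0654 (without control replicate 2) to 0.0483 (without si025 replicate 1) when 1 library was left out, and was -0.0688 with DESeq2. Over all alternatives, list medians that changed sign ranged from -0.24 to 0.05 for the CDK inhibitors, -0.02 to 0.09 for the kinesins, -0.07 to 0.0037 for the proteasome, -0.03 to 0.07 for the ABC transporters, -0.12 to 0.05 for the IGF axis, -0.02 to 0.12 for the Hippo list, -0.01 to 0.06 for the NRF2 targets, -0.22 to 0.19 for the metallothioneins and -0.22 to 0.25 for the leukocyte markers. Medians that shrank by over 1.5 times without a sign change included, with length and GC offsets, cholesterol synthesis (-0.07), leucine-rich repeat genes (0.09) and channels (0.14), with a mean of at least 5 CPM the keratins (0.16), and with 1 library left out the matrix proteases (0.27, without si025 replicate 1), remodelers (-0.08, without si025 replicate 2), glycolysis (-0.07, without si025 replicate 3), integrins (0.16, without si033 replicate 1) and NF-kB targets (0.07, without si033 replicate 2). The difference for the siRNA-2# passenger word was 0.0885 with an 8-base word and 0.0252 with a 6-base word, and those for the siRNA-1# words with 8 and 6 bases were -0.0588 and -0.0121 (guide) and -0.0594 and -0.0138 (passenger). The causes were not tested. Genes under about 20 counts in a group are limited by depth, and their fold changes depend on the prior count.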
